A study of Mus musculus with 8 samples.

Results

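The genes of the red cell membrane and its skeleton are described here in H3K9ac ChIP-seq peak lists of mouse BM cells. The 8 genes are *Slc4a1*, *Sptb*, *Ank1*, *Epb41*, *Epb42*, *Rhag*, *Rhd* and *Kel*, out of 21938 protein-coding genes examined. They were chosen by name, with earlier results of these data known. For each gene, every peak within 1 kb of an annotated transcription start site (TSS) or inside the gene body was taken from each list. H3K9ac, the acetylation of lysine 9 of histone H3, is found at active promoters and enhancers.

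All mice carried the *NUP98-HOXD13* transgene, a fusion gene used as a model of myelodysplastic syndrome, on the C57BL/6 strain. They also carried one of 3 *GFI1* genotypes. *GFI1-36S* encodes serine at residue 36 of the transcription factor GFI1, *GFI1-36N* carries asparagine there, and *GFI1-KD* mice express less GFI1. For each genotype there was 1 library from vehicle-treated mice, which received DMSO, and 1 from mice given curcumin at 20 mg/kg weekly by i.p. injection, 6 libraries in all. The ages of the mice and the number of mice behind each library were not given in the sources used here. The mice still had their own blood formation. The labels and the paper's methods name BM cells, while the title of the paper's ChIP-seq figure names c-kit-positive cells. Whether the cells were sorted is not settled by these sources. Since each group is a single library, the differences lack any check between replicates, and none was given a p-value. Treatments were taken from the labels, but for *GFI1-36S* the lists are named the other way round. For *GFI1-36N*, zygosity appears in the list names alone, as heterozygous with vehicle and homozygous with curcumin.

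Band 3, the anion exchanger encoded by *Slc4a1*, is the main protein of the red cell membrane. It is tied to the spectrin skeleton through ankyrin-1 (*Ank1*) and protein 4.2 (*Epb42*), while β-spectrin (*Sptb*) is joined to actin and to the membrane with the help of protein 4.1R (*Epb41*). The Rh-associated glycoprotein (*Rhag*) and the Rh protein (*Rhd*) form the Rh complex, and *Kel* encodes the Kell glycoprotein, an endopeptidase. Apart from *Epb41*, which is used in many tissues, these genes are known for their expression in developing red cells. The samples were labelled as BM cells, which are a mixture, so that fewer erythroid cells and less acetylation per cell cannot be told apart.

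The lists held between 20354 peaks (*GFI1-36S* curcumin) and 49213 peaks (*GFI1-36N* curcumin). They carry no read totals. From the deposited fold enrichment and p, the number of fragments at the summit could be recovered for 98.6% to 99.9% of the peaks, and the lowest summit of a list held 13 to 17 fragments. A gene with no peak therefore lay below the calling threshold and need not have lacked the mark. The *GFI1-36S* curcumin library stood apart. It had a promoter peak at 14 of 14 T-cell markers, 0 of 14 neutrophil markers and 1 of 10 progenitor markers, against 3 to 8, 9 to 14 and 8 to 10 in the other libraries, and it was the only one with peaks on chromosome Y, which numbered 3.

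The promoters of these genes differ in base composition and in the motifs of erythroid factors. Their RefSeq sequences (GRCm38.p6, the assembly of mm10) are shown to allow the starts marked in all libraries to be set beside those that were not. A RefSeq window was matched for 6 of the 8 genes, with 8 windows in all. The 150 bases before the start are printed 5′ to 3′ on the strand of the gene, with capitals at matches to the GATA motif (AGATAA or TGATAA, or with G as the last base AGATAG or TGATAG) and to the CACCC motif (CCACCC), on either strand. *Kel*, *Rhag* and *Rhd* hold a GATA match within 60 bases of the start, *Sptb* a CACCC match in a GC-rich promoter, and the most upstream *Epb41* start and the start in its first intron are the GC-rich promoters that were marked in all 6 libraries.
Kel, chr6:41704326-41704475, minus strand: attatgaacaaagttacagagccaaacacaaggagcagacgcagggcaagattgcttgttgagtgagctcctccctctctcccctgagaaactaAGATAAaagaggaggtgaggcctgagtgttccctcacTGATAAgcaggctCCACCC
Rhag, chr17:40810999-40811148, plus strand: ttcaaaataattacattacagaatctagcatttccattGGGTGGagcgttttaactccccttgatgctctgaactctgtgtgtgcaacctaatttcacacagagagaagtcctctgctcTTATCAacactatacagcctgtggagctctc
Rhd, chr4:134864386-134864535, plus strand: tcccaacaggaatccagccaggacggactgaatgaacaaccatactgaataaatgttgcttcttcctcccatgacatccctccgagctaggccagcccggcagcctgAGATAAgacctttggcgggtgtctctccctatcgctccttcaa
Sptb, chr12:76710548-76710697, minus strand: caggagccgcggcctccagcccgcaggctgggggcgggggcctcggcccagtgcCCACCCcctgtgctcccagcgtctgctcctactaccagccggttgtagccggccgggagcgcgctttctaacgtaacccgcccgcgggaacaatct
Epb41, most upstream start, chr4:132075314-132075463, minus strand: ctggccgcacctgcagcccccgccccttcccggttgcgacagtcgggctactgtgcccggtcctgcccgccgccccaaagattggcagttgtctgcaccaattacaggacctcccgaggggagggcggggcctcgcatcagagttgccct
Epb41, start in the first intron, chr4:132049079-132049228, minus strand: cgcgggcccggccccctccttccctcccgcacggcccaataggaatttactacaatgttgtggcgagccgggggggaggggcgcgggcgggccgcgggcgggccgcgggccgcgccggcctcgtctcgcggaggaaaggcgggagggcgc

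In *Kel* the GATA matches begin 56 and 19 bases before the start and the CACCC match 6 bases before it. In *Rhag* the GATA match begins 31 bases before the start and the CACCC match 112 bases before it, both on the opposite strand, and in *Rhd* the GATA match begins 43 bases before the start. Over the whole windows, from 250 bases before to 50 bases after the start, 7 of the 8 windows (all 6 genes) held a GATA match, against 29.8% of the 32851 RefSeq promoter windows of the same length. A CACCC match was found in 3 of the 8 windows against 31.5% of all windows, and both motifs in the same 3 windows (*Kel*, *Rhag* and *Sptb*) against 7.42%. The E-box, CANNTG, was found in 6 of the 8 windows and in 72.3% of all windows. The window at the *Epb41* start in the first intron held none of these motifs. The GC content of the printed part was 78% there and 68.7% at the most upstream *Epb41* start, and 72% in *Sptb*, against 53.3% in *Rhd* and 42% in *Rhag*. A match is a string of letters and was not tested as a binding site.

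Promoter peaks were found at all 8 genes in each of the 3 libraries labelled vehicle, and treatments here and below follow the labels unless stated otherwise. With curcumin the number of members listed was 1 of 8 in *GFI1-36S*, 5 of 8 in *GFI1-36N* and 4 of 8 in *GFI1-KD* mice. Among all protein-coding genes the listed share was 51.9% with vehicle and 44.3% with curcumin for *GFI1-36S*. For *GFI1-36N* it was 51.7% with vehicle and 53.8% with curcumin, and for *GFI1-KD* 53.6% and 50.6%. A promoter peak in all 3 vehicle libraries was found for 49.5% of all genes and for 8 of the 8 members, and *Epb41* alone of the 8 had one in all 6 libraries. Because fold enrichment is not normalized between libraries, each gene was ranked by the fold enrichment of its strongest promoter peak among those of all protein-coding genes with a promoter peak in its library. The rank runs up to 100 for the strongest, and a gene without a peak was given 0. Intervals on ranks are 95% Poisson intervals of the recovered summit fragments carried over to the rank, and they cover counting error only. The interval of a difference in rank joins the extremes, lower bound minus upper bound and upper bound minus lower bound. Where both libraries have a peak it is wider than a 95% interval of the difference. An interval that includes 0 therefore does not show that there was no difference.

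*Slc4a1* (chromosome 11, 102348824 to 102366203, minus strand) had its annotated coding start at 102365280. Its promoter rank was 15.0 (10.4 to 20.8) in the *GFI1-36S* vehicle library, 9.96 (4.53 to 15.0) in *GFI1-36N* and 33.4 (26.6 to 42.5) in *GFI1-KD*. With curcumin there was no promoter peak in *GFI1-36S* or *GFI1-36N* mice, and in *GFI1-KD* mice the rank was 0.981 (0 to 6.53). By the treatment labels, which the list names reverse for *GFI1-36S*, the band 3 promoter was thus listed with each vehicle library. It was near or below the threshold with each curcumin library. In *GFI1-KD* mice the summit held 116 fragments (95.9 to 139) with vehicle and 19 (11.4 to 29.7) with curcumin. Relative to the genome background of its library this was 18.9 times the background against 3.84 times, a height 4.93 times greater with vehicle.

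*Ank1* (chromosome 8, 22974844 to 23150497, plus strand) has 4 separate groups of starts in the annotation. The one at 23035128 was marked in 5 libraries, with a rank of 23.3 (17.5 to 32.1) in *GFI1-36S* vehicle, 10.1 (4.53 to 15.0) in *GFI1-36N* vehicle and 30.6 (24.5 to 38.8) in *GFI1-KD* vehicle. With curcumin the rank was 0 in *GFI1-36S*, 10.1 (4.69 to 15.4) in *GFI1-36N* and 4.64 (0.441 to 10.1) in *GFI1-KD* mice. The *GFI1-36N* values were therefore alike within counting error, while the *GFI1-KD* intervals did not overlap. A further start at 23058275 carried a peak in *GFI1-36S* vehicle (fold enrichment 5.56) and *GFI1-KD* vehicle (4.67) and in no other library. The most upstream start, at 22974844, and the downstream starts from 23139030 to 23139105 carried no peak in any library. *Mir486*, a microRNA gene inside *Ank1* that lies from 23142555 to 23142682, likewise had no peak within 1 kb in any library.

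*Sptb* (chromosome 12, 76580488 to 76710547, minus strand) had a promoter rank of 41.98 (31.1 to 56.5) in *GFI1-36S* vehicle, 12.1 (6.99 to 17.5) in *GFI1-36N* vehicle and 30.3 (24.1 to 38.5) in *GFI1-KD* vehicle. With curcumin no promoter peak was listed in *GFI1-36S* mice, and the rank was 14.9 (10.3 to 20.0) in *GFI1-36N* and 3.75 (0.099 to 9.48) in *GFI1-KD* mice. The β-spectrin promoter thus followed that of its partner ankyrin in which libraries it was marked. Its summit held 107 fragments (87.7 to 129) with vehicle and 24 (15.4 to 35.7) with curcumin in *GFI1-KD* mice, a height over background 3.60 times greater with vehicle. The *GFI1-36N* summits held 42 and 43 fragments.

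*Epb42* (chromosome 2, 121017891 to 121037072, minus strand) had the lowest rank of the 8 genes in *GFI1-36S* vehicle, at 11.4 (6.94 to 16.2), and in *GFI1-36N* vehicle, at 1.03 (0 to 7.05). In *GFI1-KD* vehicle its rank was 16.3 (12.2 to 21.5). No curcumin library listed a peak at the protein 4.2 promoter. The vehicle summits held 43, 21 and 62 fragments in the order of the genotypes given.

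*Epb41* (chromosome 4, 131923413 to 132075321, minus strand) differed from the other 7 genes. Its rank was 79.6 (64.5 to 91.0) with vehicle and 32.0 (18.2 to 51.3) with curcumin in *GFI1-36S*, and 60.4 (46.7 to 75.04) and 53.7 (40.5 to 70.1) in *GFI1-36N* mice. The *GFI1-KD* rank was 75.8 (63.8 to 86.3) with vehicle and 77.4 (63.8 to 88.8) with curcumin. In both *GFI1-36N* and *GFI1-KD* mice the intervals of the treatments overlapped widely, and in *GFI1-36S* they did not. The gene has 4 separate groups of starts. The strongest peak lay at the most upstream one, at 132075292, in 5 libraries, and at the start in the first intron, at 132049078, in the *GFI1-36S* curcumin library. Both starts were marked in all 6 libraries. At the upstream start the fold enrichment, vehicle first, was 27.9 and 8.59 for *GFI1-36S*. It was 19.8 and 22.2 for *GFI1-36N*, and the *GFI1-KD* values were 29.8 and 26.7. At the intronic start it was 16.3 and 9.79, 10.5 and 10.7, and 10.1 and 10.3 in the same order. The peak at the upstream start lies within 1 kb of the start of the coding gene *Gm10300*, and that at the intronic start within 1 kb of a start of the noncoding gene *Gm13063*, so that these peaks cannot be assigned to *Epb41* alone. An *Epb41* start at 132072097 was marked in the 3 vehicle libraries and in no curcumin library, with fold enrichments of 6.57, 4.32 and 7.13 in the order *GFI1-36S*, *-36N* and *-KD*. The start group at 132007431 to 132007438 carried no peak.

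The Rh complex was represented by *Rhag* (chromosome 17, 40811126 to 40840754, plus strand) and *Rhd* (chromosome 4, 134864536 to 134896172, plus strand). The *Rhag* rank was 36.6 (27.2 to 50.02) in *GFI1-36S* vehicle, 6.73 (1.03 to 12.3) in *GFI1-36N* vehicle and 20.3 (16.0 to 26.0) in *GFI1-KD* vehicle. With curcumin it was 14.9 (10.3 to 20.0) in *GFI1-36N* mice, with no peak in the other 2 genotypes. *Rhag* was therefore the member with the higher value in the curcumin library of *GFI1-36N* by the widest margin, although the intervals overlapped. The *Rhd* rank was 16.5 (11.8 to 22.7), 2.47 (0.0176 to 8.91) and 14.4 (10.1 to 19.0) in the vehicle libraries of *GFI1-36S*, *-36N* and *-KD* mice, and no curcumin library had a peak at the annotated coding start. *Kel* (chromosome 6, 41686330 to 41704339, minus strand) had ranks of 19.0 (13.9 to 25.7), 8.33 (2.20 to 13.5) and 20.9 (16.2 to 26.9) in the same vehicle libraries. With curcumin *Kel* was listed in *GFI1-36N* mice alone, at 7.62 (1.02 to 13.3).

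**Figure D1:**
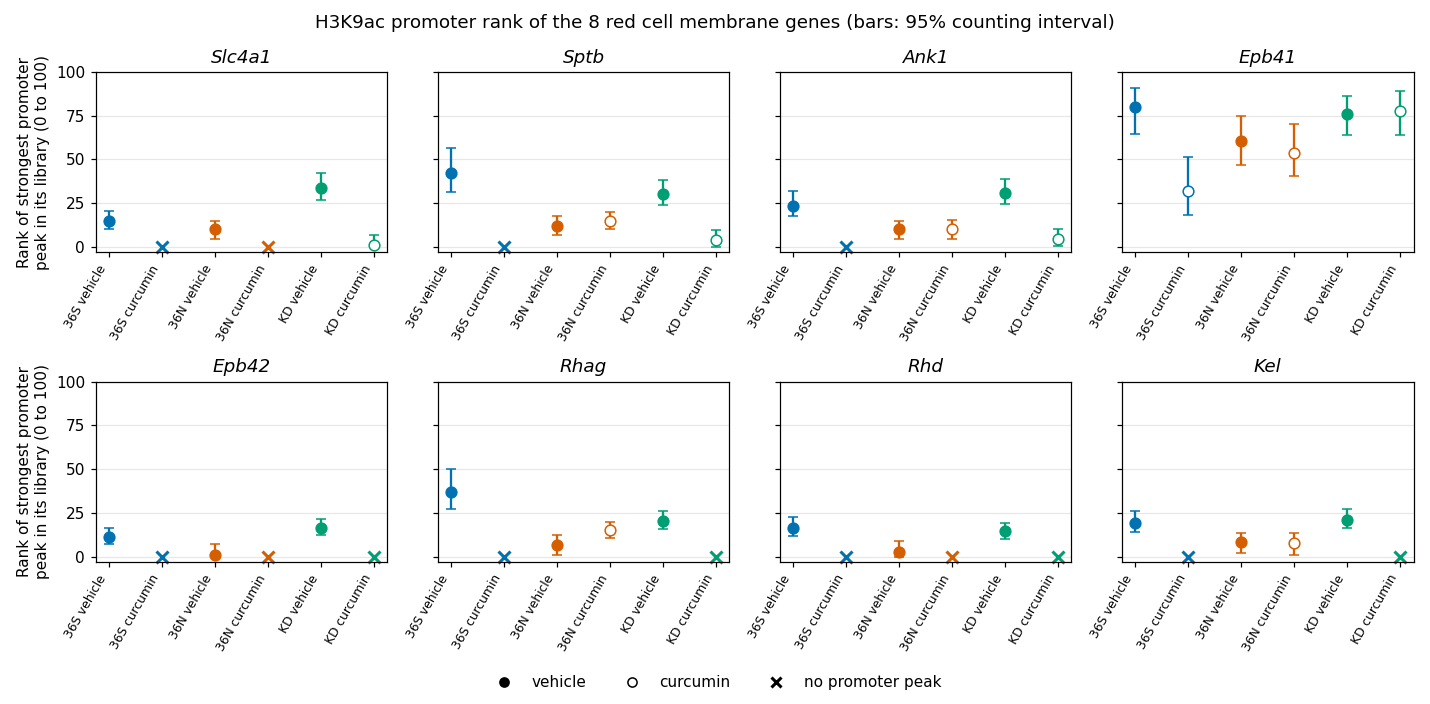
Rank of the strongest H3K9ac promoter peak of each of the 8 genes (y axis, 0 to 100 within a library) in the 6 libraries (x axis). Filled points are vehicle, open points curcumin, crosses mark no promoter peak, and bars are 95% counting intervals; *Epb41* lies between 32.0 and 79.6 in all libraries, while the other genes have at least 1 cross.

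Most member peaks were broad for their height in 2 of the vehicle libraries, and this was not particular to the members. When the widest promoter peak of each gene was ranked by width in the same way, the median over the 8 genes was 63.2 in *GFI1-36S* vehicle and 80.4 in *GFI1-KD* vehicle, against median ranks by fold enrichment of 21.1 and 25.6. *Epb41* in both libraries and *Rhd* in *GFI1-KD* vehicle ranked lower by width than by fold enrichment. In the same 2 libraries the neutrophil markers had medians of 72.1 and 86.8 by width, against 18.2 and 19.0 by fold enrichment. The other red cell membrane genes described below had 67.7 and 81.9, against 35.8 and 33.2. In *GFI1-36N* vehicle both medians of the members were low, at 17.4 by width and 9.14 by fold enrichment. In *GFI1-KD* vehicle the *Slc4a1* peak covered 5047 bp (width rank 96.2), the *Kel* peak 4082 bp (91.7) and the *Sptb* peak 3835 bp (89.6). The blocks ran mostly into the gene. With curcumin in *GFI1-KD* mice the listed peaks were 337 bp at *Slc4a1*, 632 bp at *Sptb* and 715 bp at *Ank1*. The widest *Epb41* promoter peak was 1961 bp with vehicle and 1510 bp with curcumin, and the peaks at its most upstream start covered 3397 bp and 1510 bp. Around the marked start of *Slc4a1* the peaks left a gap in each vehicle library, of 193 bp in *GFI1-36S*, 272 bp in *GFI1-36N* and 140 bp in *GFI1-KD* mice, with a peak on both sides. A gap of the same kind was seen at *Rhd* in *GFI1-36N* vehicle (811 bp) and *GFI1-KD* vehicle (150 bp) and at *Kel* in *GFI1-36S* vehicle (207 bp). At *Rhag* in *GFI1-36N* mice, the strongest peak was 253 bp wide with vehicle and 2272 bp wide with curcumin, against 2425 bp and 2596 bp in the *GFI1-36S* and *GFI1-KD* vehicle libraries.

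**Figure D2:**
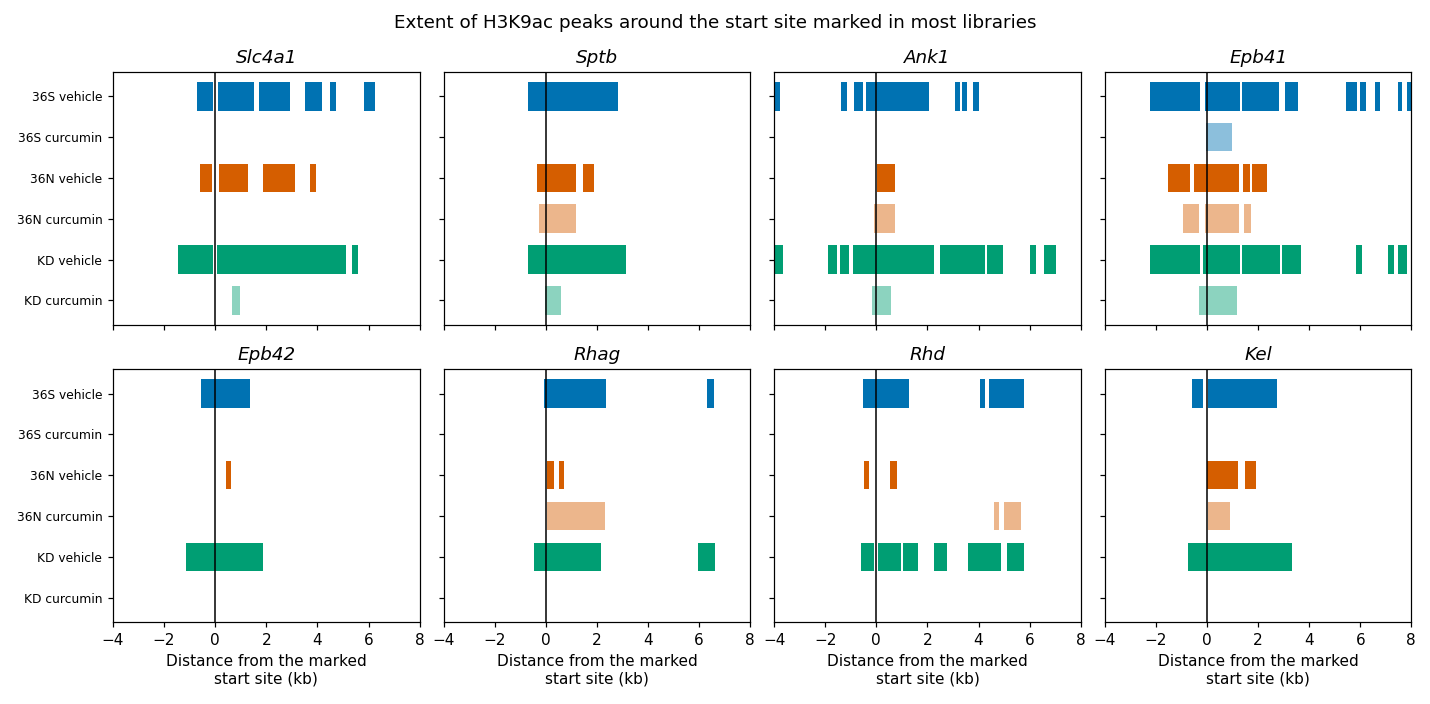
Extent of the H3K9ac peaks around the start site marked in most libraries, for the 8 genes (x axis, distance in kb along the direction of transcription) with 1 row per library. Dark bars are vehicle and pale bars curcumin; the *Slc4a1* block of 5047 bp in *GFI1-KD* vehicle stands above a bar of 337 bp with curcumin.

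The question for curcumin was how acetylation differed between treated and vehicle-treated mice of a genotype. In *GFI1-KD* mice, 7 of the 8 members had a lower rank with curcumin and 1, *Epb41*, a higher one. The median change over the 8 genes, curcumin minus vehicle, was −20.60, with a median of −2.34 over the 11908 genes with a promoter peak in either library. A lower rank was found for 62.9% of these genes. Of the 8 members, 4 (*Epb42*, *Rhag*, *Rhd* and *Kel*) had a promoter peak with vehicle alone, against 6.73% of the genes, and 0 with curcumin alone, against 1.19%. The members began lower, at a median rank of 25.6 with vehicle against 49.4 over these genes, and the shares were not matched for starting rank. The change was −32.41 (−42.46 to −20.04) for *Slc4a1*, −26.52 (−38.38 to −14.67) for *Sptb* and −26.01 (−38.35 to −14.38) for *Ank1*. For the 4 genes with no peak it lay between −20.89 (*Kel*) and −14.42 (*Rhd*), and for *Epb41* it was 1.63 (−22.53 to 25.05). The intervals of all but *Epb41* lay below 0, where the interval of a missing peak counts as 0. For the 4 genes with no peak this follows whenever the vehicle interval stays above 0, and cannot show a difference from a peak just below the threshold. The neutrophil markers, which other cells of the marrow express, also had fewer promoter peaks in the *GFI1-KD* curcumin library (9 of 14 against 14 of 14, summed rank 174 against 386). Of these markers 9 ranked lower and 5 higher, with a median change of −11.08. Progenitor markers had 10 of 10 in both libraries (summed rank 395 against 243), with 5 lower, 5 higher and a median change of 0.45. Among the 20354 top peaks of each list, 2 members rather than 4 had a promoter peak in this library. The part of the cell composition in the result was not tested.

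In *GFI1-36N* mice the 8 members changed by a median of −0.87, with 6 lower and 2 higher, against a median of 1.89 over 12022 genes. A lower rank with curcumin was found for 39.9% of those genes. A promoter peak with vehicle alone was found for 3 members (*Slc4a1*, *Epb42* and *Rhd*), against 1.84% of the genes, and a peak with curcumin alone for 0 members, against 5.73%. The 3 lost peaks were weak ones, with 37, 21 and 23 fragments at the summit with vehicle. The members' median rank with vehicle was 9.14 against 47.1 over those genes, and the shares were not matched for starting rank. *Slc4a1* differed by −9.96 (−15.01 to −4.53) and *Rhd* by −2.47 (−8.91 to −0.02), although for *Rhd* the sign turned, to 4.14, when the starts of the comprehensive annotation were used. Both intervals take the missing peak as exactly 0. They carry the counting error of the vehicle peak alone, and cannot show a difference from a peak just below the threshold. Among the 20354 top peaks of each list, *Rhd* had no promoter peak in either *GFI1-36N* library, and the *Slc4a1* difference was −3.92. For the other 6 genes the interval reached or included 0, at −1.03 for *Epb42*, −0.71 for *Kel*, −0.04 for *Ank1*, −6.71 for *Epb41*, 2.79 for *Sptb* and 8.16 (−1.94 to 18.93) for *Rhag*. Neutrophil markers had a promoter peak at 12 of 14 genes in both *GFI1-36N* libraries, with 9 ranked higher and 3 lower with curcumin, a median change of 7.36 and a summed rank of 286 against 194 with vehicle. The part of this in the result was not tested.

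In *GFI1-36S* mice all 8 members had a lower rank in the library labelled curcumin, with a median change of −21.13 against −6.61 over 11608 genes. A lower rank was found for 69.1% of those genes. Here 7 members had a promoter peak with vehicle alone, against 16.2% of the genes, and 0 with curcumin alone, against 1.99%. These shares were not matched for starting rank, which with vehicle had a median of 21.1 for the members and 49.2 over those genes. The change was −41.98 for *Sptb*, −36.62 for *Rhag*, −23.32 for *Ank1* and −47.60 (−72.82 to −13.20) for *Epb41*, which kept its peaks at both GC-rich starts. For *Slc4a1* it was −14.96, and −4.38 where the summit had to lie inside the promoter window, since the summit in the vehicle library was 1211 bp from the start. With the labels exchanged, as the names of the lists have them, each of these changes had the opposite sign, with a median of 21.1. For mice of this genotype, the paper reports a positive enrichment of the heme metabolism gene set with curcumin. For the other genotypes it reports a negative one. The paper's enrichment used the log2 fold change of normalized read counts in peaks, a different measure from the ranks here. In direction, the lower ranks of the members under the labels run opposite to the enrichment reported for this genotype, and the exchanged libraries run the same way. In *GFI1-36N* mice the members changed by a median of −0.87 and the erythroid markers named below by 8.16. The *GFI1-KD* medians were −20.60 and −14.62. The heme metabolism gene set was not examined here, and which assignment is right was not tested. The curcumin library is the one that stood apart by its T-cell and neutrophil markers. Its promoter peaks were also the weakest, with a median height of 15.6 times the background against 20.3 to 25.9 in the other libraries. The median summit of these peaks held 72 fragments, against 120 to 159. The part of the markers and of the weaker peaks in the result was not tested.

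**Figure D3:**
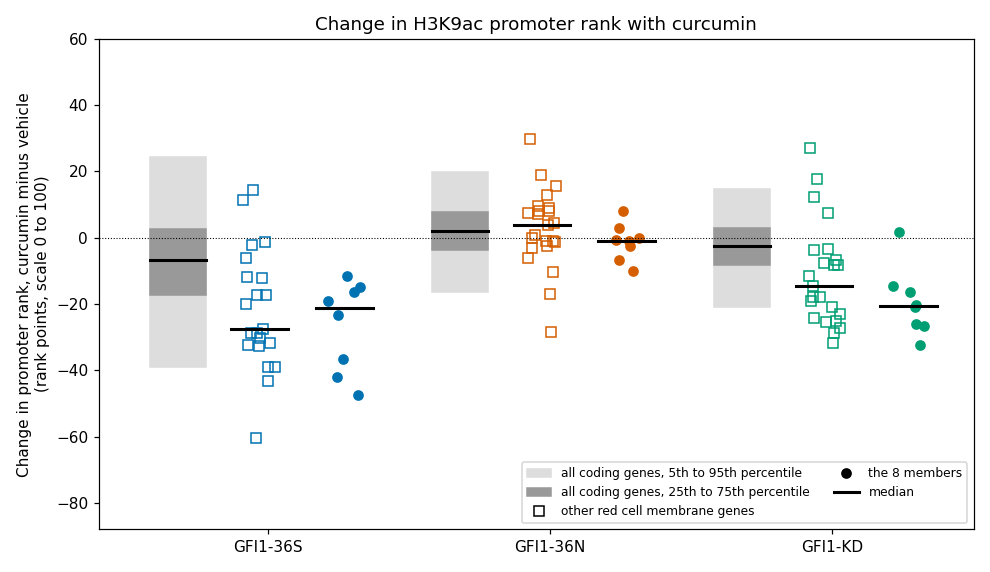
Change in promoter rank, curcumin minus vehicle, in rank points (y axis) for the 3 genotypes (x axis). Pale and dark grey bars span the 5th to 95th and the 25th to 75th percentiles of all protein-coding genes with a promoter peak in either library, squares are other red cell membrane genes, circles the 8 members and black lines medians, which for the members are −21.13, −0.87 and −20.60 in *GFI1-36S*, *-36N* and *-KD* mice.

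The genotypes were compared in the 3 vehicle libraries, each of which enters 2 of the 3 comparisons. In *GFI1-36N* vehicle all 8 members ranked lower than in *GFI1-36S* vehicle, with a median difference of −13.58 against −0.67 over all genes, of which 53.6% ranked lower. The difference was −29.89 (−48.99 to −14.96) for *Rhag* and −29.88 (−49.53 to −13.63) for *Sptb*, and its interval lay below 0 for *Ank1*, *Rhd* and *Kel* as well. For *Slc4a1*, *Epb41* and *Epb42* the interval included 0. With the *GFI1-36S* libraries exchanged this median difference was 9.14, and that between *GFI1-KD* and *GFI1-36S* was 25.6. In *GFI1-KD* vehicle all 8 members ranked higher than in *GFI1-36N* vehicle, with a median difference of 15.30 against 1.73 over all genes, of which 59.3% ranked higher. The interval of this difference lay above 0 for every member except *Epb41*, and was 11.56 to 37.93 for *Slc4a1*. Between *GFI1-KD* and *GFI1-36S* vehicle the members were split, with 4 lower and 4 higher in *GFI1-KD* and a median difference of −0.05, while 42.7% of all genes ranked lower in *GFI1-KD*. *Slc4a1* ranked higher in *GFI1-KD* by 18.44 (5.78 to 32.06) and *Rhag* lower, by −16.32 (−34.03 to −1.25), and the other 6 intervals included 0. The order of the genes within a library therefore differed between these 2 genotypes, with *Sptb* and *Rhag* next after *Epb41* in *GFI1-36S* and *Slc4a1*, *Ank1* and *Sptb* next after it in *GFI1-KD* mice, where the last 3 overlapped in their intervals. The *GFI1-36N* vehicle library also had a lower median rank of the erythroid markers named below (18.6, against 41.3 in *GFI1-36S* and 49.7 in *GFI1-KD* vehicle) and of the neutrophil markers (10.9, against 18.2 and 19.0), and the part of cell composition was not tested.

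Peaks inside the gene bodies were merged over the libraries into 67 sites, of which 14 touched a promoter window and 53 lay outside. Of the 53, 23 were listed in 1 library and 30 in 2 or more. They were found in *GFI1-36S* (35 sites) and *GFI1-KD* (41 sites) vehicle libraries for the most part, with 12 in *GFI1-36N* vehicle and 1, 14 and 4 in the curcumin libraries of *GFI1-36S*, *-36N* and *-KD* mice. *Epb42* and *Kel* had none. Peaks covered 7.81% of the bases of the 8 genes in *GFI1-36S* vehicle, 2.93% in *GFI1-36N* vehicle and 9.60% in *GFI1-KD* vehicle. Over the bodies of all protein-coding genes the covered share was 2.60%, 2.55% and 2.95% in the same libraries. With curcumin the members' share was 0.345%, 2.55% and 1.17%, and that of all genes 1.25%, 2.87% and 2.02%. The share of the members was thus 3.00, 1.15 and 3.26 times that of all genes with vehicle, and 0.277, 0.891 and 0.579 times with curcumin.

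In *Sptb*, a site in intron 32 (chr12:76593379-76595168) 115744 bp from the nearest start had a peak in 5 libraries, with a fold enrichment of 6.23 in *GFI1-36S* vehicle. The *GFI1-36N* libraries had 6.47 (vehicle) and 4.67 (curcumin) and the *GFI1-KD* libraries 11.2 and 8.38. In the *GFI1-KD* curcumin library this exceeded the fold enrichment of the *Sptb* promoter, which was 4.15, and its summit held 54 fragments against 24. No start of another gene lay within 1 kb of the site. *Sptb* starts found only in the comprehensive annotation were not looked for there. A site in intron 15 (chr12:76615034-76615659) was listed in 4 libraries, with 24 fragments (vehicle) and 18 (curcumin) in *GFI1-36N* mice, while the *GFI1-KD* libraries held 29 and 30. By contrast, a group of 7 sites in the first *Sptb* intron, from 76669786 to 76677242, was marked in *GFI1-36S* vehicle at 4 sites and in *GFI1-KD* vehicle at 7, in *GFI1-36N* vehicle at 1, and in no curcumin library.

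In *Epb41* a site in the first intron (chr4:132039410-132041043), 8964 bp downstream of the intronic start, was listed in 5 libraries. Its fold enrichment was 8.42 in *GFI1-36S* vehicle, and no peak was listed there in *GFI1-36S* curcumin. The *GFI1-36N* libraries had 8.05 with vehicle and 9.86 with curcumin, and the *GFI1-KD* libraries 8.77 and 7.63. Of the 20 body sites of this gene, 17 were marked in *GFI1-36S* vehicle and 13 in *GFI1-KD* vehicle, against 2 in *GFI1-KD* curcumin. In *Ank1* the 15 body sites lay on both sides of the marked start, with 7 listed in *GFI1-36S* vehicle, 14 in *GFI1-KD* vehicle and 3 in *GFI1-36N* curcumin, and none in the other libraries. In *Rhd*, 3 sites had a peak in *GFI1-36N* curcumin, where the promoter had none. Those in introns 2 and 3 were listed with vehicle too, at fold enrichments of 3.60 against 4.50 with curcumin in intron 2 and 3.02 against 2.77 in intron 3, and the one in intron 1 was listed with curcumin alone, at 3.63. The intron 2 site (chr4:134879511-134879959) lies at the start of a noncoding *Rhd* transcript of the comprehensive annotation and had 21, 24, 25 and 37 fragments in *GFI1-36S* vehicle, *GFI1-36N* vehicle and curcumin, and *GFI1-KD* vehicle.

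**Figure D4:**
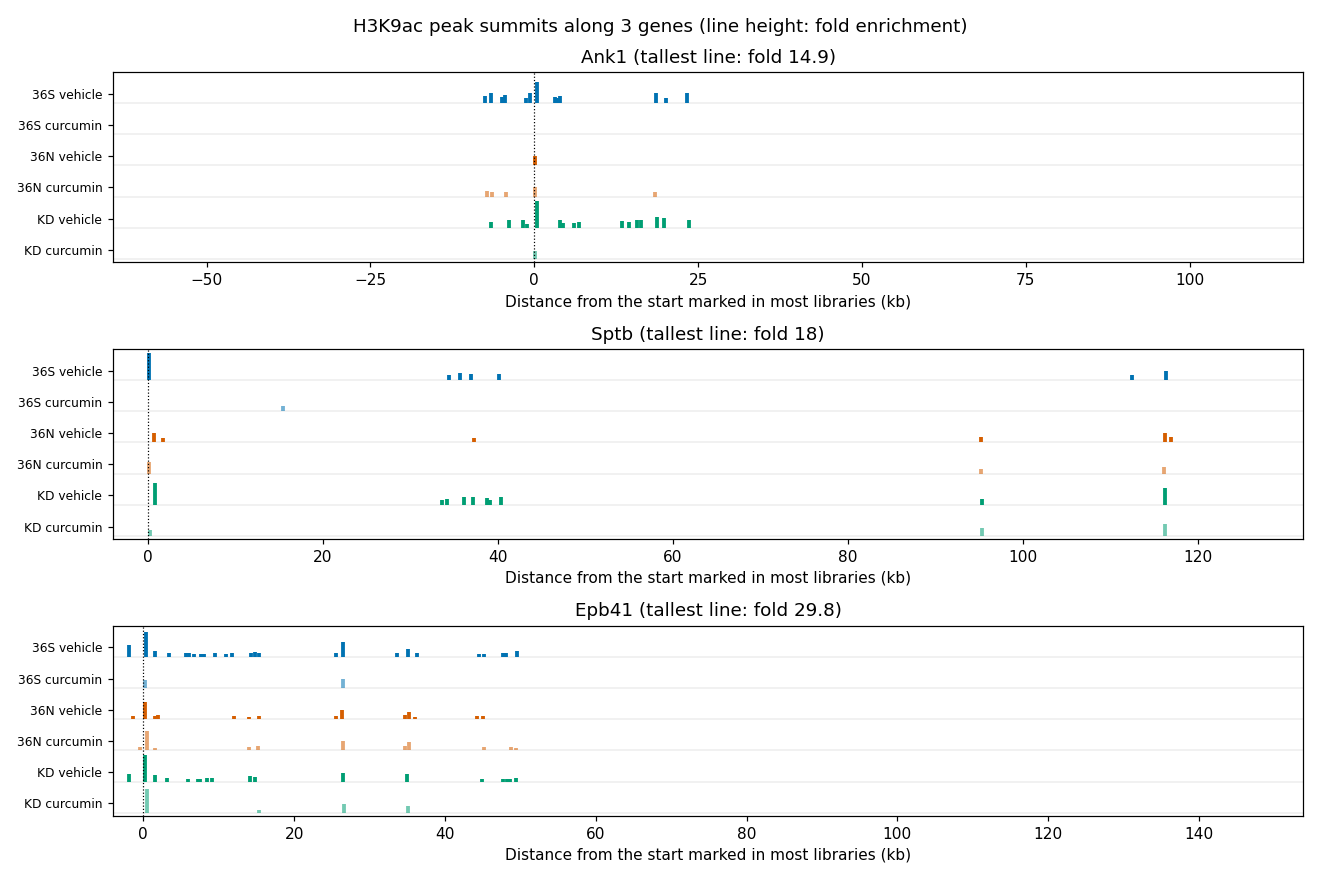
Summits of all H3K9ac peaks along *Ank1*, *Sptb* and *Epb41* (x axis, distance in kb from the start marked in most libraries) in 1 row per library, with line height proportional to fold enrichment within a gene. Vehicle libraries of *GFI1-36S* and *GFI1-KD* carry clusters of weak peaks, and the *Sptb* site in intron 32, near 116 kb, is present in all but *GFI1-36S* curcumin.

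Another 24 red cell membrane genes were examined as the rest of the pathway, among them α-spectrin, glycophorins, adducins, tropomodulins and transporters. In the order *GFI1-36S*, *-36N* and *-KD*, the number listed at a promoter was 21, 22 and 23 with vehicle and 15, 21 and 19 with curcumin. Their median change with curcumin was −27.63 in *GFI1-36S* (19 lower, 2 higher), 3.89 in *GFI1-36N* (10 lower, 13 higher) and −14.43 in *GFI1-KD* mice (19 lower, 4 higher). In *GFI1-KD* mice the genes with the largest negative change were *Gypc*, glycophorin C (71.4 to 39.6), *Ermap* (29.6 to 0.756) and *Aqp1*, the water channel (27.7 to 0.608). Those with the largest positive change were *Slc14a1*, the urea transporter (29.6 to 56.7), *Slc2a1*, the glucose transporter GLUT1 (47.9 to 65.8), and *Piezo1*, the mechanically gated channel (50.2 to 62.3). In *GFI1-36N* mice they were *Slc14a1* (81.6 to 53.0), *Tmod3* (66.8 to 49.9) and *Aqp1* (10.4 to 0) with a lower rank, and *Slc16a1* (40.4 to 70.3), *Slc2a1* (40.4 to 59.2) and *Add1* (51.6 to 67.3) with a higher one. In *GFI1-36S* mice the changes were negative for *Stom* (95.9 to 35.4), *Slc14a1* (43.1 to 0.0308) and *Cd47* (99.0 to 59.9), and only *Slc2a1* (43.1 to 57.6) and *Slc16a1* (76.5 to 88.0), a lactate transporter, ranked higher with curcumin. The genes were picked by the size of these changes. The interval of the change included 0 for *Slc2a1* in every genotype and for *Piezo1* in *GFI1-KD* mice. It also did for *Slc14a1*, *Tmod3* and *Add1* in *GFI1-36N* and for *Slc16a1* in *GFI1-36S* mice. For the other changes named it did not.

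Markers of the red cell lineage were read beside these genes. Of 7 erythroid markers (the regulators *Gata1*, *Klf1*, *Tal1*, *Nfe2* and *Zfpm1* and the receptors *Epor* and *Tfrc*), 7, 6 and 7 were listed at a promoter with vehicle and 4, 7 and 5 with curcumin, in the order *GFI1-36S*, *-36N* and *-KD*. Their median change was −22.23 (5 lower, 2 higher), 8.16 (2 lower, 5 higher) and −14.62 (7 lower, 0 higher) in the same order of genotypes. *Gata1*, the erythroid GATA factor, and *Epor*, the erythropoietin receptor, were the 2 without a peak in *GFI1-KD* curcumin. *Gata1* was also without one in *GFI1-36N* vehicle, and *Gata1*, *Epor* and *Tal1* were in *GFI1-36S* curcumin. Of 8 megakaryocyte markers, 5 had a peak in *GFI1-KD* vehicle and 2 in *GFI1-KD* curcumin, all 5 with a lower rank with curcumin and a median change of −8.02. The number was 4 with vehicle and 1 with curcumin for *GFI1-36S*, and 3 and then 4 for *GFI1-36N*. B-cell markers had a peak at 0 to 4 of 8 genes in all 6 libraries.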

How the data were processed

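H3K9ac ChIP-seq of BM cells was available as 1 peak list per library. Reads had been trimmed by the authors with Trim Galore and mapped with BWA-MEM to mm10. MACS2 was then run on each library, and peaks on the ENCODE black list were discarded. The control of each list, the peak threshold and the handling of duplicates were not given in the sources used here. The deposited fold enrichment is the ratio at the summit over the local background, and the deposited −log10 p and −log10 q are those of MACS2. None is normalized between libraries. The input and IgG samples were not used here.

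Genes and TSSs came from the basic set of GENCODE M21 (GRCm38.p6), without the mitochondrial genome. Promoters covered 1 kb on each side of any TSS, and 1 bp of overlap was enough. Whole summit fragments were recovered from fold enrichment and p with a tolerance of 0.002 on the −log10 scale, with Poisson 95% intervals. PCR copies are not independent molecules, so that intervals cover counting error only. Heights were divided by the genome background of each list. Work was done in Python 3.11.15 with numpy 2.4.6, scipy 1.17.1 and pandas 2.3.3, and the steps were tested on simulated data. The results were recomputed with the 20354 top peaks of each list, with peaks whose −log10 q was 5 or more, a window of 3 kb, 200 bp of overlap, the summit inside the window, the most upstream TSS, ranks by −log10 p, genes of all biotypes, exchanged *GFI1-36S* libraries and, added after seeing the data, the comprehensive annotation. The members and gene lists were chosen with earlier results of these data known. All members are named. Of the other membrane genes, the 3 with the largest positive and negative change in rank per genotype are named, and in *GFI1-36S* only 2 had a higher rank. Up to 2 genes of each marker list, those of highest rank, could be named and were not. The erythroid markers named for having no peak were chosen after their values were seen.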

Additional observations from a re-analysis of the deposited data

Results flagged for a closer look

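Of the 8 members, 3 differed in direction between genotypes in their change of promoter rank with curcumin. The difference between genotypes was not tested, since each value compares 1 library with 1 other. In the order *GFI1-36S*, *-36N* and *-KD*, the change was −41.98, 2.79 and −26.52 for *Sptb*. It was −36.62, 8.16 and −20.30 for *Rhag*, and −47.60, −6.71 and 1.63 for *Epb41*. The counting intervals of the *GFI1-36N* values of the 3 genes and of the *GFI1-KD* value of *Epb41* included 0. The median change of the other 24 red cell membrane genes likewise differed in direction, at −27.63, 3.89 and −14.43, and this difference was not tested.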

How the results depend on the processing

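Apart from the exchange of the *GFI1-36S* libraries, 144 of 147 summary values over the members stayed within a set range. For counts the range was 1.5 times. For medians it ran from the median of the members' lower bounds to the median of their upper bounds. That is not a counting interval of the median itself, and the check is a loose one. The 3 values outside the range came from the 20354 top peaks of each list, as fewer weak peaks are kept. They were median ranks of 3.05 and 0.889 in *GFI1-36N* vehicle and curcumin and 2 members with a promoter peak in *GFI1-KD* curcumin. With the *GFI1-36S* libraries exchanged, the vehicle library had 1 member with a peak (median rank 0) and the curcumin library 8 (21.1), and the median change was 21.1. The changes were then 15.0 for *Slc4a1*, 41.98 for *Sptb*, 23.3 for *Ank1*, 47.6 for *Epb41*, 11.4 for *Epb42*, 36.6 for *Rhag*, 16.5 for *Rhd* and 19.0 for *Kel*. The vehicle differences became 9.14 for *GFI1-36N* and 25.6 for *GFI1-KD* against *GFI1-36S*. Of 216 changes of single members under the other alternatives, 202 stayed inside their interval, 13 moved outside it and 1 had the opposite sign: with the comprehensive annotation *Rhd* changed by 4.14 in *GFI1-36N* mice, because of the intronic start. Of the 13, 10 came from the 20354 top peaks, 1 from the summit inside the window (*Slc4a1*) and 2 from the most upstream TSS, at which *Ank1* had no promoter peak. Within a genotype, no paired analysis was possible because there is 1 library per treatment and the labels give no replicate numbers. A comparison of the treatments with the 3 genotypes as blocks was not run. Leaving out a library leaves no comparison for its genotype. A missing peak is known only to lie below the threshold, where the lists start at 13 to 17 fragments.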
